A study of Homo sapiens with 52 samples.

Results

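The genes described here are SERPINB2 and 4 further genes of the plasminogen activator system, SERPINE2, PLAU, PLAUR and PLAT, in 3 claudin-low breast cancer cell lines in which neuropilin-1 (NRP1) had been knocked down. They are 5 of the 78894 genes listed in the deposited gene-level tables, and they were chosen by gene name. The set was put forward with results of these same libraries in view and is headed by SERPINB2, so the knockdown changes of SERPINB2 are given as a description with no test. The tests of the other 4 genes are not independent evidence either.

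Plasminogen is a circulating zymogen that is cleaved to plasmin, a protease that digests fibrin and matrix proteins and activates matrix metalloproteinases. The cleavage is done by urokinase (uPA, encoded by PLAU), which is held at the cell surface by its receptor uPAR (PLAUR), or by tissue plasminogen activator (tPA, PLAT). Both activators are blocked by serpins, among them PAI-2 (SERPINB2), which is largely kept inside the cell, and protease nexin-1 (SERPINE2), which also inhibits thrombin. In breast cancer, uPA is a long-studied marker of invasion.

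The series holds 52 poly(A) RNA-sequencing libraries in 18 groups. MDA-MB-231 gave 18 libraries and SUM159PT and HS578T 17 each; these are 3 established lines from breast tumours with mesenchymal features. Each line was either transfected with 20 nM of a short interfering RNA and harvested 72 hours later (siNT, non-targeting; siNRP1#3; siNRP1#5), or transduced with a lentiviral short hairpin RNA, selected with puromycin and harvested 48 hours after seeding (shNT, non-targeting; shNRP1#3; shNRP1#5). The #3 sequences are directed at transmembrane NRP1 alone and differ between siRNA and shRNA, whereas siNRP1#5 and shNRP1#5 are one sequence, directed at transmembrane and soluble NRP1. All shRNA groups, shNT included, carry the vector and were selected, so delivery, selection and time of harvest differ together between siRNA and shRNA groups. Groups had 3 replicates, except SUM159PT siNRP1#5 and HS578T shNRP1#3 with 2. The study's methods give consecutive passages as the replicates of the shRNA cells. They do not say whether a hairpin was transduced more than once. If it was not, the effect of a hairpin cannot be told apart from that of its transduced pool. How the siRNA replicates were made is not described, beyond being called independent biological replicates like all others. The p-values measure the spread between such cultures of one line.

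Libraries held 25310443 to 72003442 counts. Levels are given as CPM, counts scaled to a common library size by TMM over the 52 libraries, and as TPM, which also allows for transcript length, where different genes are compared. By CPM, NRP1 was lower than its non-targeting (NT) control in every library of all 12 knockdown comparisons. The falls were 0.70 to 4.88 on the log2 scale. They passed the test (edgeR quasi-likelihood, Benjamini-Hochberg adjusted p below 0.05) in 11 of 12. The exception was HS578T shNRP1#3 (2 libraries), where the log2 change was -1.59 (edgeR adjusted p = 0.069). By TPM, MDA-MB-231 siNRP1#3 overlapped its control, with 24.8, 29.5 and 31.3 TPM against 25.6, 29.3 and 31.6 TPM in siNT. In every other comparison, all knockdown libraries were below their controls by TPM too. The call in SUM159PT shNRP1#3 was lost without any of 5 of its 6 libraries (edgeR adjusted p up to 0.15). With the RNA of other lines subtracted, the calls in HS578T shNRP1#5 (edgeR adjusted p = 0.309) and siNRP1#3 (0.469) were lost. Their changes stayed at -2.13 to -2.08 and -1.32 to -1.18 over the alternatives other than leaving out a library. RNA of MDA-MB-231 was estimated at 0.186 to 0.239% in shNRP1#5 and 2.57 to 7.42% in siNRP1#3. All HS578T groups share 1 estimate of the spread, and the cause of the lost calls was not tested. Of the markers of the claudin-low state, VIM, ZEB1 and CD44 were expressed in all 3 lines and ESR1 and PGR were near 0, but CLDN4 and CLDN7 had medians of 146 and 22.3 CPM in MDA-MB-231. ERBB2 had medians of 55.9 CPM in HS578T, 86.5 CPM in SUM159PT and 80.4 CPM in MDA-MB-231. The 3 HS578T siNRP1#5 libraries held RNA of MDA-MB-231, at 24.8, 18.1 and 13.3% of the level of that line by 59 marker genes. Replicate 2 also held RNA of SUM159PT, at 8.72% by 70 marker genes. By the 28 of these that were low in MDA-MB-231 too, it was 5.43%. With the RNA of all other lines subtracted at their NT level, the change in NRP1 of the siNRP1#5 group went from -2.66 to -5.495. MDA-MB-231 had a median of 128 CPM of NRP1 in its NT libraries, but a mean of 2.45 CPM under siNRP1#5. Subtraction at the NT level can thus remove too much NRP1, and -5.495 is not a corrected knockdown.

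SERPINB2 lies on chromosome 18 (GRCh38, chr18:63871692-63903888, plus strand). In MDA-MB-231 and HS578T, the 2 lines that express it, the transcript SERPINB2-201 made up, by median, 99.2% of the gene's estimated expression in the former and all of it in the latter. The RefSeq start of the gene, from GRCh38.p14, coincides with the start of that transcript. The 250 bases before it (chr18:63887455-63887704, plus strand) are shown because SERPINB2 has the widest range of the 5 genes. Capitals mark a match to TGANTCA, the core of AP-1 sites, and a match to TATAAA, 102 and 30 bases upstream of the start.

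SERPINB2: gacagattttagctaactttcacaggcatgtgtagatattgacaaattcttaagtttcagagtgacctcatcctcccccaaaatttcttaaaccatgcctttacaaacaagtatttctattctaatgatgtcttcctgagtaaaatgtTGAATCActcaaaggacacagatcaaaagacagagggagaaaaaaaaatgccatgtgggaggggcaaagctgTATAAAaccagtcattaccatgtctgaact

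On either strand, TGANTCA occurred in 6.57% and TATAAA in 10.7% of 35116 RefSeq promoter windows of the same length, and the 2 motifs do not overlap in SERPINB2. Among the windows examined of SERPINE2, PLAU and PLAUR, only that of PLAUR held one of the motifs, a TGANTCA match 186 bases upstream of its start. It is shown in capitals for comparison with the AP-1-like match of SERPINB2.

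PLAUR: cacaactccaTGAGTCAgggccgagcc

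These matches describe the letters of the windows and no binding was measured.

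In cells that received an NT control, SUM159PT was close to empty of it, with 0 to 3 counts in each of its 6 NT libraries and 8 counts in all (0 to 0.0659 CPM). The 6 NT libraries of MDA-MB-231 had 0.753 to 1.35 CPM and those of HS578T 0.587 to 2.03 CPM, so these lines overlapped and neither overlapped SUM159PT. No fold over SUM159PT is given, since it would rest on those 8 counts. HS578T and MDA-MB-231 did not pass the test against each other (log2 difference 0.47 ± 0.34, SE, edgeR adjusted p = 0.217). In these bulk samples, fewer expressing cells and less RNA per cell cannot be told apart.

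The other inhibitor of the set, SERPINE2, was ordered HS578T, SUM159PT, MDA-MB-231, with NT medians of 296, 70.5 and 30.2 CPM. All 3 pairs of lines passed the test, HS578T being above MDA-MB-231 by 3.42 ± 0.26 on the log2 scale (edgeR adjusted p = 1.76e-09) and above SUM159PT by 1.84 ± 0.25 (edgeR adjusted p = 3.46e-06). MDA-MB-231 was below SUM159PT (-1.58 ± 0.24, edgeR adjusted p = 1.86e-05). These differences average siNT and shNT. The means of MDA-MB-231 and SUM159PT were 23.9 and 157 CPM in siNT, but 38.7 and 52.0 CPM in shNT.

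Of the activators, PLAU was highest in MDA-MB-231 (NT median 415 CPM), above SUM159PT by 0.86 ± 0.16 on the log2 scale (edgeR adjusted p = 1.24e-04) and above HS578T, in which it was 0.96 ± 0.16 lower. SUM159PT and HS578T, at medians of 216 and 211 CPM, did not differ beyond their spread (edgeR adjusted p = 0.588). PLAT had medians of 257 CPM in MDA-MB-231, 148 in SUM159PT and 88.4 in HS578T, but its NT libraries spread from 48.9 to 427 CPM within HS578T alone and no pair of lines passed the test. Without HS578T shNT replicate 1, HS578T was below MDA-MB-231 (-1.34 on the log2 scale, edgeR adjusted p = 5.52e-04), and without HS578T siNT replicate 3 it also passed (-0.95, edgeR adjusted p = 0.0498). The receptor PLAUR was higher in HS578T than in SUM159PT (1.10 ± 0.21, edgeR adjusted p = 1.75e-04) and than in MDA-MB-231 (0.64 ± 0.21, edgeR adjusted p = 0.0103), and the latter 2 did not pass (edgeR adjusted p = 0.0652), but passed without SUM159PT siNT replicate 2 (0.78, edgeR adjusted p = 6.99e-05) or shNT replicate 3 (0.53, 0.0499). In all, 9 of 15 tests of the 5 genes between lines passed, 2 of them for SERPINB2 against SUM159PT, which had entered the test only through its level in the other lines. Over all 20686 genes tested, 61.7% passed between MDA-MB-231 and SUM159PT, 66.4% between HS578T and SUM159PT and 73.2% between HS578T and MDA-MB-231, so the share of the 5 genes was no higher than the background.

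Per length, PLAU had the highest NT median of the 5 genes in SUM159PT and MDA-MB-231, and SERPINE2 in HS578T. In SUM159PT shNT alone, PLAT had a mean of 134 TPM against 105 TPM for PLAU. Over the 6 NT libraries of that line, PLAU was 0.55 to 5.87 times PLAT. The NT medians of PLAU were 120, 295 and 83.5 TPM in SUM159PT, MDA-MB-231 and HS578T, against 50.5, 27.9 and 158 TPM for SERPINE2. SERPINB2 was at 0.025, 0.905 and 0.825 TPM in the same order. In MDA-MB-231, 55% of the genes with TPM above 0 ranked higher than SERPINB2 and 1.96% ranked higher than PLAU. Plasminogen itself (PLG) was at 0, 0.05 and 0 TPM. These lines thus carried transcripts of both activators, the receptor and the inhibitor SERPINE2, with next to none of the zymogen.

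**Figure D1:**
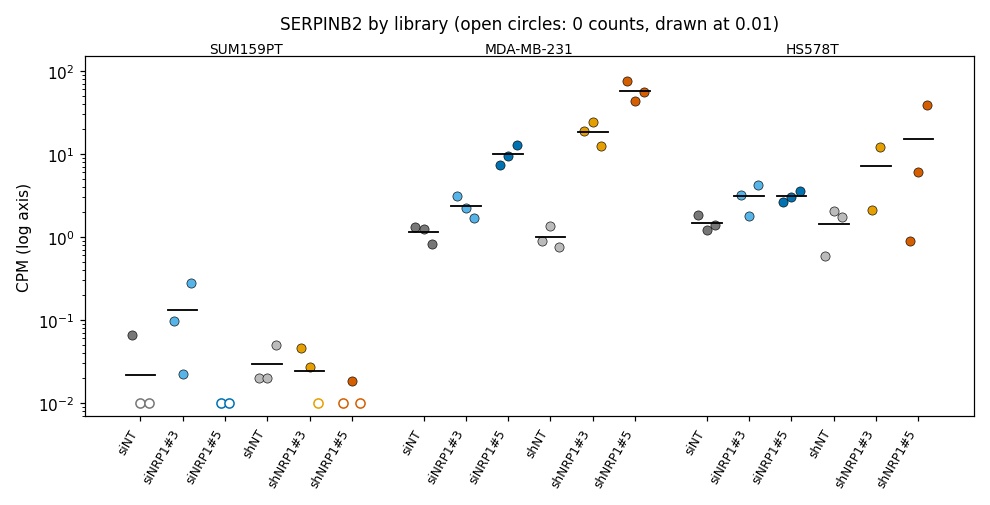
SERPINB2 in each of the 52 libraries, as TMM-normalised CPM on a log axis, by cell line and treatment (points, libraries; bars, group means; open circles, libraries with 0 counts drawn at 0.01). MDA-MB-231 climbs from about 1 CPM in both NT controls to between 43.1 and 74.6 CPM with shNRP1#5, HS578T spreads from 0.900 to 38.5 CPM within its shNRP1#5 group, and SUM159PT stays at or below 0.277 CPM.

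SERPINB2 was higher with each of the 4 NRP1-directed sequences in MDA-MB-231, with no overlap between any knockdown group and its control. The siNT libraries had 1.33, 1.25 and 0.822 CPM and the siNRP1#3 libraries 3.10, 2.25 and 1.69 CPM, a log2 difference of 1.09 ± 0.33 (SE). With siNRP1#5 the libraries had 7.37, 9.55 and 12.8 CPM, 3.15 ± 0.33 above siNT. The step between the 2 siRNAs was thus itself free of overlap.

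The shRNA groups of MDA-MB-231 stood higher still. The shNT libraries had 0.881, 1.35 and 0.753 CPM, like siNT (log2 difference -0.22 ± 0.34, edgeR adjusted p = 0.704). With shNRP1#3 the level was 18.9, 24.2 and 12.4 CPM (4.23 ± 0.33 above shNT) and with shNRP1#5 it was 74.6, 43.1 and 55.1 CPM (5.87 ± 0.35), a ratio of means of 57.9. Library by library, with equal replicate numbers set against each other, shNRP1#5 was 84.7, 32.0 and 73.1 times shNT.

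With siRNA and shRNA groups ranked together, the order of SERPINB2 in MDA-MB-231 was not the order of the fall in total NRP1. NRP1 fell by 0.70 on the log2 scale with siNRP1#3, by 4.88 with siNRP1#5, by 1.48 with shNRP1#3 and by 1.05 with shNRP1#5. Within the siRNA groups the orders matched, and within the shRNA groups they did not. The siRNA and shRNA groups have different controls. Since siNRP1#3 and shNRP1#3 are directed at transmembrane NRP1 alone, total NRP1 does not give the depth of that knockdown. Whether SERPINB2 follows the loss of NRP1 was not tested. The sequence shared by siNRP1#5 and shNRP1#5 gave the deepest fall of NRP1 as siRNA and the highest SERPINB2 as shRNA. The log2 change of SERPINB2 was 2.72 ± 0.45 smaller as siRNA, which is given with no test because SERPINB2 was chosen on such changes.

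In HS578T, SERPINB2 was high in some knockdown libraries and at the control level in others. The siNT libraries had 1.82, 1.23 and 1.39 CPM and the siNRP1#3 libraries 3.22, 1.78 and 4.24 CPM, so the groups overlapped (1.06 ± 0.91 on the log2 scale). The shNT libraries had 0.587, 2.03 and 1.72 CPM, the 2 shNRP1#3 libraries 2.13 and 12.0 CPM (2.27 ± 0.98), and the shNRP1#5 libraries 0.900, 6.11 and 38.5 CPM (3.38 ± 0.95). The shNRP1#5 difference was 1.28 without replicate 3, and the shNRP1#3 difference was 0.54 without replicate 2.

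Replicate 1 was the lowest for SERPINB2 in all 3 shRNA groups of HS578T, and the same 3 libraries were the highest for PLAT. Their PLAT levels were 427 CPM in shNT, 406 in shNRP1#3 and 220 in shNRP1#5, while the other 5 libraries of these groups had 61.4 to 120 CPM. Set against the library of the same number, SERPINB2 in shNRP1#5 was 1.53, 3.02 and 22.4 times shNT, and in shNRP1#3 it was 3.63 and 5.92 times shNT. Every such ratio was above 1, and those within shNRP1#5 were far apart.

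The siNRP1#5 libraries of HS578T had 2.63, 3.03 and 3.57 CPM of SERPINB2, above the 3 siNT libraries (1.06 ± 0.90 on the log2 scale). MDA-MB-231 cells under the same siRNA had 7.37 to 12.8 CPM, and the share of their RNA in these libraries would bring 2.45, 1.79 and 1.32 CPM. With that part subtracted and the rest divided by the remaining share of the library, the levels were 0.234, 1.51 and 2.60 CPM. The siNT libraries, treated alike, had 1.82, 1.23 and 1.39 CPM, and the log2 ratio of the means became -0.03. The RNA of SUM159PT in replicate 2 was not subtracted in this step. An edgeR fit after subtraction of the RNA of all other lines at their NT level gave a difference of 1.39, which also differs in method from the ratio of means.

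**Figure D2:**
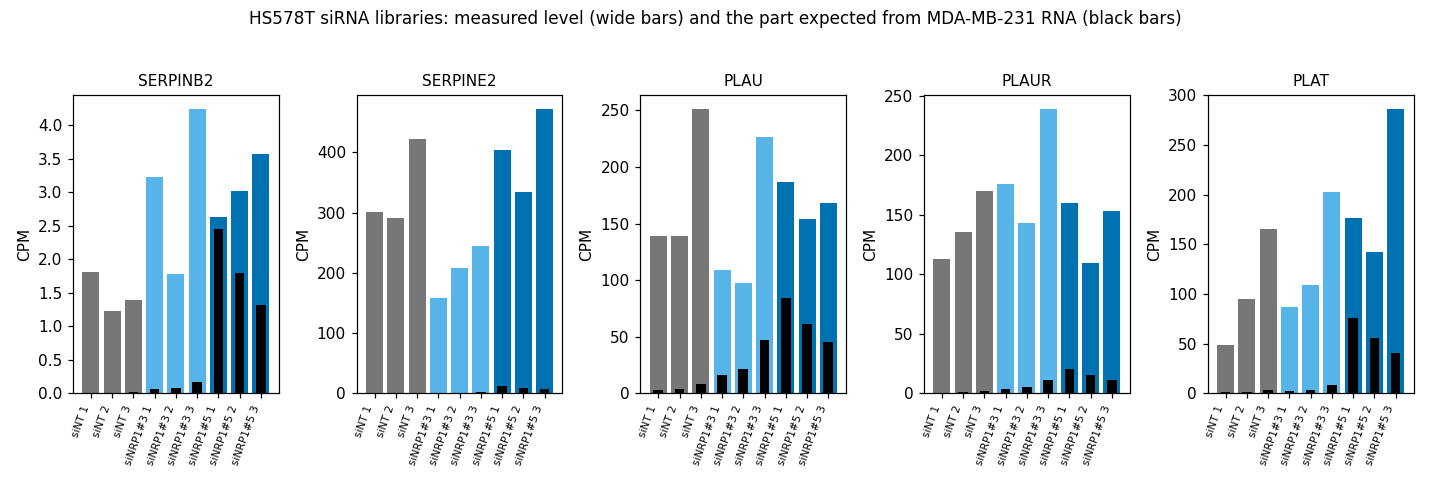
Measured level of each of the 5 genes in the 9 siRNA libraries of HS578T (wide bars, CPM) and the level that the RNA of MDA-MB-231 under the same treatment would bring (black bars, CPM). In siNRP1#5 replicate 1 the black bar reaches 2.45 of 2.63 CPM for SERPINB2 and 84.2 of 186 CPM for PLAU, whereas in the siNT libraries it stays at or below 8.51 CPM for every gene.

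SUM159PT had close to no SERPINB2 under any treatment. It had 0 counts in 7 of 17 libraries and at most 3 in 15 of them, and the other 2 were siNRP1#3 replicate 1 with 4 counts (0.0972 CPM) and replicate 3 with 14 counts (0.277 CPM). A count of 3 corresponds to 0.0484 to 0.0905 CPM at the depths of these libraries. No fold is given, since control and knockdown were near that floor, and the gene did not pass the filter on low counts in this line. Intervals and floors of this kind cover counting error only.

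**Figure D3:**
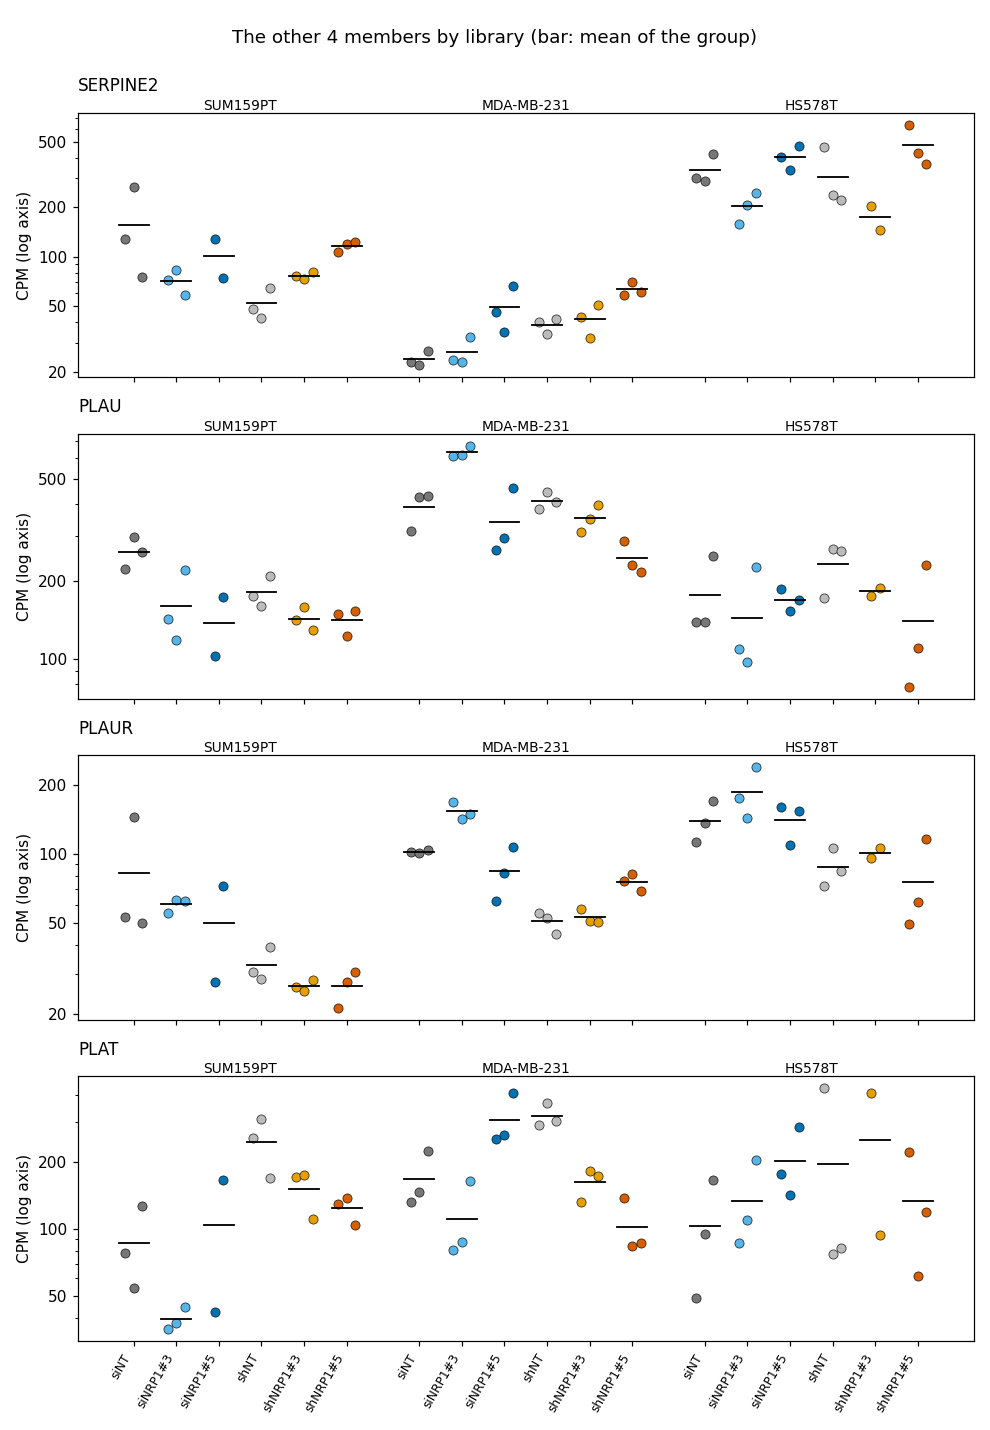
SERPINE2, PLAU, PLAUR and PLAT in each of the 52 libraries, as TMM-normalised CPM on a log axis, by cell line and treatment (points, libraries; bars, group means). The group means of SERPINE2 are highest in HS578T and lowest in MDA-MB-231 at every treatment, PLAU is highest in MDA-MB-231 siNRP1#3 at 612 to 670 CPM, and PLAT falls to between 83.4 and 138 CPM in MDA-MB-231 shNRP1#5.

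The other 4 genes were tested in each knockdown against its NT control, over all genes tested in the line. In MDA-MB-231, 8 of 16 tests passed, 6 up and 2 down. The share of all 18800 genes that passed was 25.7% with siNRP1#3, 29.4% with siNRP1#5, 3.65% with shNRP1#3 and 20.7% with shNRP1#5, and 2, 2, 0 and 4 of the 4 genes passed in that order. In SUM159PT, 3 of 16 passed, 1 with each sequence except shNRP1#3, where the background of 20067 genes was 8.66% with siNRP1#3, 17.9% with siNRP1#5, 1.4% with shNRP1#3 and 5.94% with shNRP1#5. In HS578T, none of 16 passed in edgeR and 3 had an unadjusted p under 0.05. There the background of 19661 genes was 4.65% with siNRP1#3, 18.7% with siNRP1#5, 0.0356% with shNRP1#3 and 0.946% with shNRP1#5. DESeq2 also called none of the 16 in HS578T, and with no filter on low counts edgeR called 1, PLAT with siNRP1#5 (edgeR adjusted p = 0.00347).

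**Figure D4:**
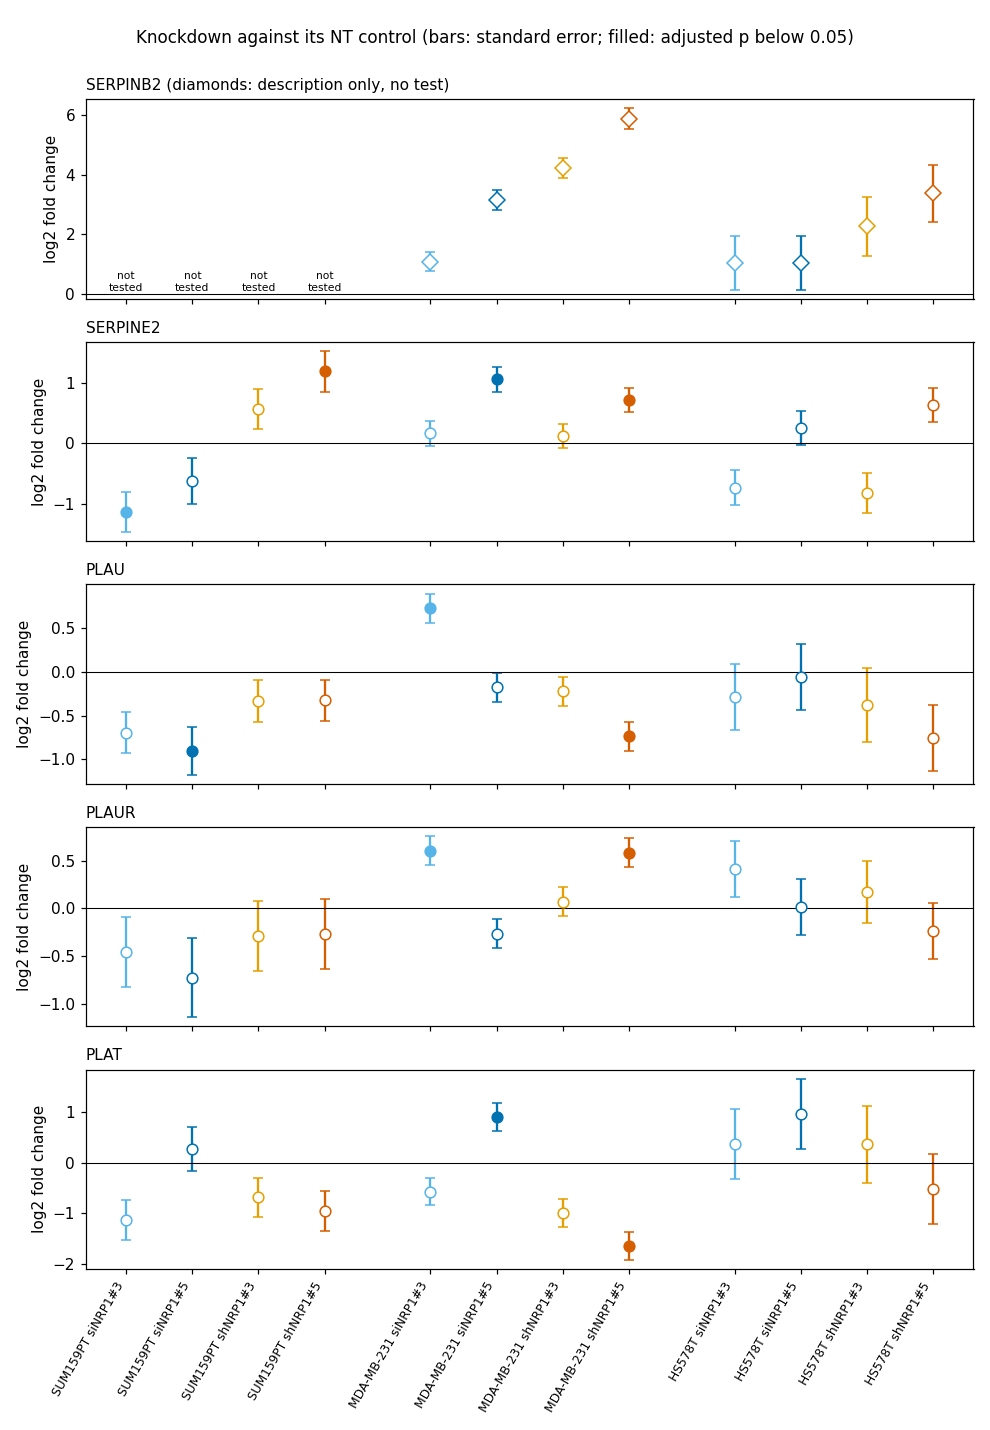
Log2 fold change of each of the 5 genes in the 12 knockdown groups against their NT controls (points, edgeR estimate; bars, standard error; filled, adjusted p below 0.05; diamonds, SERPINB2, shown as a description). SERPINB2 runs up to 5.87 in MDA-MB-231, while the other genes stay between -1.64 and 1.19 and have no filled point in HS578T.

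The activator PLAU moved in opposite directions with different sequences in MDA-MB-231. The siNT libraries had 314, 424 and 428 CPM and the siNRP1#3 libraries 612, 617 and 670 CPM, a rise of 0.73 ± 0.17 on the log2 scale (edgeR adjusted p = 0.00337). The shNT libraries had 381, 443 and 407 CPM and the shNRP1#5 libraries 287, 232 and 217 CPM, a fall (-0.74 ± 0.17, edgeR adjusted p = 0.00446). Neither pair of groups overlapped, and both calls held with each library left out in turn. With siNRP1#5 (-0.18 ± 0.17) and shNRP1#3 (-0.22 ± 0.17) PLAU did not pass the test.

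By CPM, PLAU in SUM159PT was below its control in every library of the 4 knockdown groups. The margin was small with shNRP1#3, whose highest library had 159 CPM against 160 CPM in the lowest of shNT. By TPM, siNRP1#3, shNRP1#3 and shNRP1#5 each overlapped their control, and only siNRP1#5 did not. The siNT libraries had 223, 297 and 260 CPM and the 2 siNRP1#5 libraries 102 and 174 CPM (-0.91 ± 0.27, edgeR adjusted p = 0.0302). Without siNRP1#5 replicate 2 the change was -0.61 (edgeR adjusted p = 0.194), without siNT replicate 2 it was -0.82 (edgeR adjusted p = 0.059), and fitted on the 2 groups alone it also missed the threshold (edgeR adjusted p = 0.189). With siNRP1#3 the level was 142, 118 and 221 CPM and the change of -0.69 ± 0.24 did not pass (edgeR adjusted p = 0.0788), but with the replicate number as a block it did (-0.73, edgeR adjusted p = 0.0384). The 2 shRNA groups had log2 changes of -0.33 each and did not pass. PLAU shares its locus (chr10:73909177-73917496, plus strand) with C10orf55, an antisense RNA that had at most 155 counts in any library, and counting was by strand.

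PLAT, the other activator, on chromosome 8, had the most divergent changes in MDA-MB-231. It rose with siNRP1#5, from 132, 146 and 223 CPM in siNT to 253, 264 and 407 CPM (0.90 ± 0.27, edgeR adjusted p = 0.0199). It fell with shNRP1#5, from 291, 368 and 305 CPM in shNT to 138, 83.4 and 86.5 CPM (-1.64 ± 0.28, edgeR adjusted p = 7.49e-04). By CPM, no library of a knockdown group reached into its control in either comparison. By TPM, siNRP1#5 replicate 2 (136 TPM) was below siNT replicate 3 (140 TPM). The rise was lost without siNRP1#5 replicate 3 (0.66, edgeR adjusted p = 0.112), siNT replicate 1 (0.77, 0.0899) or siNT replicate 2 (0.80, 0.0768), and the fall held without any one library.

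With shNRP1#3, PLAT had 132, 182 and 172 CPM in MDA-MB-231, below the 3 shNT libraries (-0.99 ± 0.27). This missed the threshold (edgeR adjusted p = 0.057) and passed it with the replicate block (edgeR adjusted p = 0.0317). In SUM159PT, PLAT was below every control library with siNRP1#3 (35.7, 38.0 and 44.6 CPM against 78.1, 54.2 and 127 CPM) and with shNRP1#5 (129, 137 and 104 CPM against 255, 310 and 168 CPM). Neither passed the test, at -1.13 ± 0.39 (edgeR adjusted p = 0.0849) and -0.96 ± 0.39 (edgeR adjusted p = 0.188). The first passed with DESeq2 (adjusted p = 0.0412) and with no filter on low counts (edgeR adjusted p = 4.07e-04), and the second with no filter (edgeR adjusted p = 0.00291). By TPM, SUM159PT siNRP1#3 overlapped its control, with 26.5 TPM in replicate 3 against 23.0 TPM in siNT replicate 2. The reads of PLAT were spread over more transcripts than those of the other genes, the leading one having a median of 24.6 to 27.9% by line.

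The receptor PLAUR (chr19:43646095-43670547, minus strand) rose in MDA-MB-231 with siNRP1#3, from 102, 101 and 103 CPM in siNT to 169, 142 and 149 CPM (0.61 ± 0.15, edgeR adjusted p = 0.00652). It also rose with shNRP1#5, from 55.3, 52.2 and 44.7 CPM in shNT to 76.1, 81.7 and 68.8 CPM (0.58 ± 0.15, edgeR adjusted p = 0.0111). Both pairs were without overlap. The first call held with each library left out, and the second was lost without shNRP1#5 replicate 2 (0.52, edgeR adjusted p = 0.0547) or shNT replicate 3 (0.50, 0.0705). Receptor and ligand therefore rose together with siNRP1#3, while with shNRP1#5 the receptor rose and PLAU and PLAT fell.

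In SUM159PT, PLAUR changed by -0.73 to -0.27 on the log2 scale over the 4 knockdowns and did not pass in any. Its siNT libraries held the widest spread, with 145 CPM in replicate 2 against 53.2 and 49.8 CPM in the others. The same library had the highest SERPINE2 of the line, 266 CPM against 128 and 75.9 CPM in the other siNT libraries. In HS578T, PLAUR changed by -0.24 to 0.42 and did not pass.

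The inhibitor SERPINE2 (chr2:223975045-224039318, minus strand) rose in MDA-MB-231 with both forms of sequence #5. With siNRP1#5 it went from 23.0, 21.9 and 26.7 CPM to 46.0, 35.1 and 66.7 CPM (1.06 ± 0.20, edgeR adjusted p = 6.42e-04), and with shNRP1#5 from 40.3, 33.8 and 41.9 CPM to 58.7, 70.7 and 60.8 CPM (0.72 ± 0.20, edgeR adjusted p = 0.0165). The groups did not overlap in either. The shRNA call was lost without shNRP1#5 replicate 2 (0.63, edgeR adjusted p = 0.0746) or shNT replicate 2 (0.63, 0.0788). With siNRP1#3 (0.17 ± 0.20) and shNRP1#3 (0.13 ± 0.20) the gene did not pass.

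SERPINE2 in SUM159PT fell with siNRP1#3 and rose with shNRP1#5, both with adjusted p just under the threshold. Under siNRP1#3 it had 71.9, 83.0 and 59.0 CPM against 128, 266 and 75.9 CPM in siNT, with overlap (-1.14 ± 0.34, edgeR adjusted p = 0.0462), and without siNT replicate 2 the change was -0.52 (edgeR adjusted p = 0.277). Leaving out any of 5 of the 6 libraries ended that call, as did a fit of the 2 groups alone (edgeR adjusted p = 0.127). Under shNRP1#5 it had 107, 120 and 122 CPM against 48.3, 42.7 and 65.1 CPM in shNT, with no overlap (1.19 ± 0.34, edgeR adjusted p = 0.0468). When any of the 6 was left out, the change stayed at 1.07 to 1.38 and the adjusted p lay between 0.0656 and 0.168.

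HS578T gave changes of -0.82 to 0.97 on the log2 scale for the 4 genes. SERPINE2 was below every control library with siNRP1#3, 158, 207 and 245 CPM against 301, 290 and 421 CPM (-0.73 ± 0.29, edgeR adjusted p = 0.163), and with shNRP1#3, 205 and 146 CPM against 463, 239 and 220 CPM (-0.82 ± 0.33, edgeR adjusted p = 0.638). By TPM, siNRP1#3 overlapped its control, with 168 TPM in replicate 3 against 143 TPM in siNT replicate 2. The change at the other end was PLAT with siNRP1#5, 177, 142 and 286 CPM against 48.9, 94.95 and 165 CPM (0.97 ± 0.69, edgeR adjusted p = 0.355). RNA of MDA-MB-231 under the same siRNA would bring 76.3, 55.7 and 40.9 CPM of that PLAT.

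Whether a knockdown changed a gene by different amounts in the 3 lines was tested over all 52 libraries and 23416 genes. Of 16 such tests of the 4 genes, 1 passed, SERPINE2 under siNRP1#5 (edgeR adjusted p = 0.0224), for which the log2 changes were 1.06 in MDA-MB-231, 0.26 in HS578T and -0.62 in SUM159PT. The background was 18.2% of all genes for siNRP1#5, 3.42% for siNRP1#3, 0.747% for shNRP1#3 and 3.81% for shNRP1#5. The call was lost without any one replicate number (edgeR adjusted p = 0.0816 to 0.113) and held without the HS578T siNRP1#5 libraries. For the other genes, changes that passed in one line and not in another were not shown to differ.

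The 2 NT controls of one line differed in several of the genes, which bears on any comparison of siRNA with shRNA groups. Of 15 tests of the 5 genes, 6 passed. In SUM159PT, shNT was below siNT for SERPINE2 (-1.62 ± 0.34, edgeR adjusted p = 0.00895) and PLAUR (-1.37 ± 0.37, edgeR adjusted p = 0.0236) and above it for PLAT (1.48 ± 0.40, edgeR adjusted p = 0.0232). In MDA-MB-231, shNT was below siNT for PLAUR (-1.04 ± 0.15, edgeR adjusted p = 1.14e-04) and above it for SERPINE2 (0.67 ± 0.20, edgeR adjusted p = 0.0249) and PLAT (0.92 ± 0.27, edgeR adjusted p = 0.025). PLAUR was thus lower and PLAT higher in shRNA controls of both lines, and SERPINE2 went in opposite directions.

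The background of these control comparisons was 20.6% of genes in MDA-MB-231, 14.4% in SUM159PT and 17.9% in HS578T, where none of the 5 passed in edgeR or DESeq2 and 1, PLAUR, had an unadjusted p under 0.05. With no filter on low counts PLAT passed there (0.93, edgeR adjusted p = 0.00562), and without shNT replicate 1 its sign turned (-0.33). The calls of SERPINE2 in SUM159PT and PLAUR in MDA-MB-231 held with each library left out. Each of the other 4 was lost without any of 4 of its 6 libraries, with adjusted p up to 0.12 in edgeR, and PLAUR in SUM159PT was -0.70 without siNT replicate 2 and missed the threshold with its 2 groups fitted alone (edgeR adjusted p = 0.0528).

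The one sequence given in both forms allowed a comparison of delivery, as the change with siNRP1#5 less that with shNRP1#5. In MDA-MB-231 it passed for PLAT, whose changes of 0.90 and -1.64 differed by 2.54 ± 0.39 (edgeR adjusted p = 2.04e-04), and for PLAUR, whose changes of -0.27 and 0.58 differed by -0.85 ± 0.21 (edgeR adjusted p = 0.00747). Both held with each library left out. These were 2 of 12 tests of the 4 genes. All genes passed at 23.7% in MDA-MB-231, 2.51% in SUM159PT and 0.854% in HS578T. The NRP1 fall itself was 3.83 deeper on the log2 scale in the siRNA form in MDA-MB-231, and shNT had 1.23 more NRP1 than siNT, so the form of delivery cannot be told apart from the depth of the knockdown or the control.

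Of the wider system, 26 genes were examined: plasminogen and its binding proteins, other inhibitors, clearance receptors, partners of uPAR and proteases that activate the pro-form of urokinase. In the 12 knockdown comparisons, 54 of 268 tests passed (20.1%), 18 up and 36 down, against 11.3% of all tests of all genes. Over all genes, 12441 tests passed upward and 14059 downward. The clearance receptors LRP1, VLDLR, SORL1, IGF2R and MRC2 take up activator and inhibitor complexes or matrix fragments. They gave 13 falls and 2 rises in 60 tests. Both rises were SORL1 in HS578T siRNA groups that held RNA of MDA-MB-231, as given below. The partners of uPAR, vitronectin and 5 integrin chains, gave 9 falls and 1 rise in 72, a share close to that of all genes. Of the falls, 7 of the 13 and 7 of the 9 were in MDA-MB-231, where 3.65 to 29.4% of all genes passed by comparison.

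With shNRP1#5 in MDA-MB-231, where PLAU and PLAT fell and SERPINB2 reached its highest level, 14 of 23 pathway genes tested fell, with a median log2 change of -0.62 against 0.02 over all genes. Of all 18800 genes tested there, 20.7% passed, 2246 of them downward. PLGRKT, a plasminogen receptor, rose (0.43, edgeR adjusted p = 0.0292). The mRNA of 4 clearance receptors fell: LRP1 (-1.52), VLDLR (-0.95), SORL1 (-1.09) and MRC2 (-1.16). Among the partners of uPAR, vitronectin (VTN) fell by 2.91, ITGB3 by 0.96 and ITGA3 by 0.48. The fall of VTN was from a low level, an NT median of 0.655 TPM in this line, against 4.14 TPM for ITGB3 and 694 TPM for ITGA3. In the same cells SERPINE2 and PLAUR rose, as given above.

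**Figure D5:**
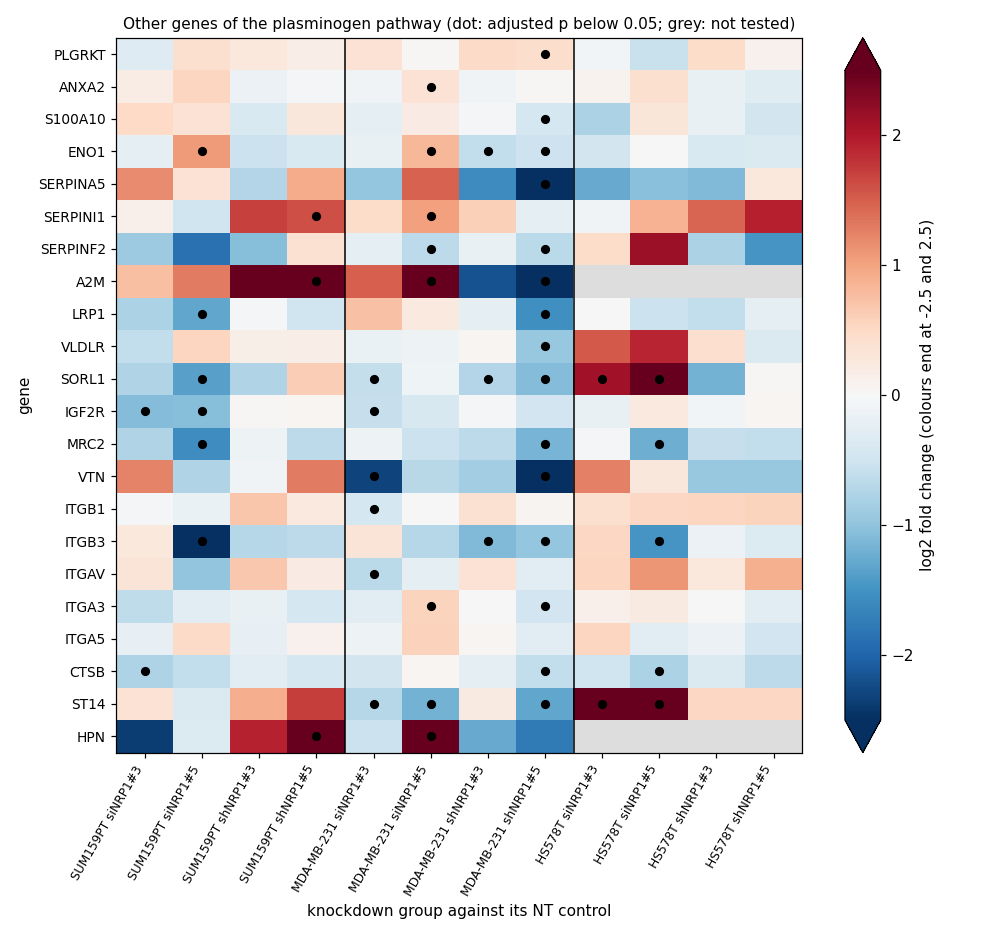
Log2 fold change of the pathway genes (rows) in the 12 knockdown groups against their NT controls (columns), in colours that end at -2.5 and 2.5 (dot, adjusted p below 0.05; grey, not tested). The MDA-MB-231 shNRP1#5 column holds 14 dots for falls, and the 2 shRNA columns of HS578T hold none.

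SORL1, a sorting receptor that binds urokinase complexes, passed in 6 of 12 comparisons, 2 of them in HS578T, where control cells had next to none of it. It fell in MDA-MB-231 with siNRP1#3, shNRP1#3 and shNRP1#5 (-0.59, -0.73 and -1.09) and in SUM159PT with siNRP1#5 (-1.36, edgeR adjusted p = 0.0469). It passed upward in HS578T with siNRP1#3 (2.09) and siNRP1#5 (4.48), where NT cells had a median of 0.04 TPM against 5.62 TPM in MDA-MB-231. The HS578T means were 0.245 CPM in siNT, 1.04 CPM with siNRP1#3 and 5.47 CPM with siNRP1#5, so the gene's level in the knockdown libraries carried it past the filter on low counts there. The share of MDA-MB-231 RNA was 0.691, 0.988 and 2.19% in siNT, 2.57, 3.39 and 7.42% in siNRP1#3 and 13.3 to 24.8% in siNRP1#5, and its part in the difference was not tested. The siNRP1#3 call of HS578T was lost without the siNRP1#5 libraries (2.10, edgeR adjusted p = 0.0528), and without any of 3 of its 6 libraries (edgeR adjusted p up to 0.0908). The siNRP1#5 call of SUM159PT was lost when only its 2 groups were fitted (edgeR adjusted p = 0.243) and without any of 3 of its 5 libraries, the change being -0.85 (edgeR adjusted p = 0.275) without siNRP1#5 replicate 2. The shNRP1#3 call of MDA-MB-231 was lost without shNRP1#3 replicate 3 (edgeR adjusted p = 0.0501) or shNT replicate 2 (0.0728).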

How the data were processed

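The authors trimmed reads with Trim Galore 0.6.5, aligned them to GRCh38 with STAR 2.7.2b and estimated expression with RSEM 1.3.3. The deposited gene tables hold RSEM expected counts and TPM per library, and the deposited transcript table holds the isoform percent of each gene. The authors state that 2 outlier samples were removed. Here expected counts were rounded to whole numbers and tested with edgeR 4.0.16 in R 4.3.3 (filterByExpr, TMM, robust quasi-likelihood fit of group means, 1 model per cell line), with Benjamini-Hochberg adjustment over all genes tested and a threshold of 0.05. The NT controls between lines and the difference between lines were fitted over the 18 NT libraries and over all 52. Standard errors are the absolute log2 fold change over the square root of F. The pipeline was checked on simulated counts. RNA of MDA-MB-231 in HS578T libraries was estimated from 59 genes at or below 0.5 CPM in one line and at or above 20 CPM in the other.

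The 5 genes and the gene lists were chosen with earlier results of these data known. Beside the 5 genes, the text names NRP1, pathway genes past the threshold in at least 6 of 12 knockdown comparisons, clade B serpins past it in at least 3 and the 5 genes most like SERPINB2. The genes named for MDA-MB-231 shNRP1#5 were chosen after their values were seen. A gene of the pathway list is part of its counts and is not reported here. Alternatives were DESeq2 1.42.0, its size factors, no filter on low counts, only the groups compared, the replicate number as a block, subtraction of RNA of other lines and leaving out each library. Stricter markers, leaving out the HS578T siNRP1#5 libraries and subtraction of RNA of the same treatment were added after seeing the data. Replicate libraries were checked for duplicates and differed by at least 11 times sampling noise (chi-square per degree of freedom). Same-numbered libraries deviated together (r over 0.1) in 10 of 14 pairs of SUM159PT, 11 of 15 of MDA-MB-231 and 7 of 14 of HS578T, and in every pair of SUM159PT siNRP1#3 and shNRP1#3, of MDA-MB-231 siNRP1#5, shNRP1#3 and shNT against siNT, and of HS578T shNRP1#3 (2 pairs) and shNRP1#5.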

Additional observations from a re-analysis of the deposited data

Results flagged for a closer look

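The change of SERPINE2 under siNRP1#5 differed between the 3 cell lines by a test of that difference (edgeR quasi-likelihood adjusted p = 0.0224). As given above, this call was lost without any one replicate number (edgeR adjusted p = 0.0816 to 0.113), and 18.2% of all genes passed that test. In MDA-MB-231, the changes under the siRNA and the shRNA form of sequence #5 differed, by the same kind of test, for PLAUR (edgeR adjusted p = 0.00747) and PLAT (edgeR adjusted p = 2.04e-04). The log2 change as siRNA was below that as shRNA for PLAUR (-0.85) and above it for PLAT (2.54), and the siRNA and shRNA groups have different controls. Groups of 2 or 3 libraries are too small for the check of single outlying libraries.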

How the results depend on the processing

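Counts of calls moved by over 1.5 times as follows. With DESeq2, SUM159PT had 5 knockdown calls in place of 3 and the difference between lines 2 in place of 1. With no filter on low counts, SUM159PT had 5, HS578T 1 in place of 0, the difference between lines 6 and the delivery comparison 6 in place of 2. With only the 2 groups compared, SUM159PT had 1. With the replicate block, the difference between lines had 2. Beyond these, the replicate block gave 4 calls in SUM159PT, 9 in MDA-MB-231, 0 in HS578T, 6 for shNT against siNT, 9 for NT cells between lines, 3 for delivery and 60 for the pathway, and beside the calls of PLAU and PLAT given above it added SERPINE2 for delivery in SUM159PT (-1.80, edgeR adjusted p = 0.0485) and PLAU under siNRP1#3 for the difference between lines (edgeR adjusted p = 0.0118). Leaving out each library in turn gave 1 to 6 calls in SUM159PT, 6 to 10 in MDA-MB-231, 0 in HS578T, 4 to 6 for shNT against siNT, 9 to 12 for NT cells between lines, 0 to 3 for the difference between lines, 2 to 4 for delivery and 43 to 61 for the pathway. The difference of SERPINB2 between shNT and siNT in HS578T, -0.01 on the log2 scale, was 0.030 with DESeq2, 0.016 with its size factors, 0.011 with the RNA of other lines subtracted, and -0.33 to 0.39 with 1 library left out. Leaving out 1 library also turned the sign of PLAT, for delivery in SUM159PT (-0.033 to 1.87) and for shNT against siNT in HS578T (-0.33 to 1.43). With MDA-MB-231 RNA of the same treatment subtracted and the rest rescaled, SERPINB2 in HS578T siNRP1#5 was -0.032 against siNT. The causes were not tested. PLAT in MDA-MB-231 shNRP1#3 had an edgeR adjusted p of 0.057 and passed with DESeq2 (adjusted p = 0.00958) and with only its 2 groups (edgeR adjusted p = 4.44e-04). SERPINB2 in SUM159PT is limited by depth, since at most 3 counts were found in 15 of 17 libraries.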

Other observations

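SERPINB2 belongs to clade B of the serpins, most of which act inside cells. Of 9 other clade B genes examined on chromosome 18, SERPINB10, SERPINB11, SERPINB12 and SERPINB13 had a median of 0 TPM in the NT cells of all 3 lines, while SERPINB8 had 3.42 to 8.91 TPM and SERPINB5 had 15.2 TPM in SUM159PT. Of 84 tests of the clade B genes in the knockdown comparisons, 8 passed upward and 9 downward (20.2%, against 11.3% of tests of all genes). SERPINB7 rose in MDA-MB-231, from a mean of 0.776 ± 0.113 CPM (SD, n = 3) in siNT to 1.71 ± 0.19 with siNRP1#3 and 1.70 ± 0.53 with siNRP1#5, and from 0.851 ± 0.263 in shNT to 4.71 ± 0.92 with shNRP1#5 (log2 changes of 1.15, 1.15 and 2.48). With shNRP1#3 it had 0.984 to 1.62 CPM and did not pass the test.

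SERPINB6, an inhibitor of cathepsin G, fell in MDA-MB-231 with shNRP1#5 (-0.55), in SUM159PT with shNRP1#5 (-1.08) and in HS578T with siNRP1#5 (-0.86), whose libraries held 13.3 to 24.8% of RNA of MDA-MB-231. The SUM159PT and HS578T calls were each lost without any of 4 of their 6 libraries, with edgeR adjusted p up to 0.1 and 0.0732. SERPINB8 rose with shNRP1#5 in MDA-MB-231 (0.75) and fell with siNRP1#5 in MDA-MB-231 (-0.90) and in SUM159PT (-1.73). SERPINB9, the inhibitor of granzyme B, fell with siNRP1#3 in MDA-MB-231 (-1.13) and with siNRP1#5 in SUM159PT (-1.42). It passed upward in HS578T siNRP1#5 (4.24), where NT cells had a median of 0.025 TPM against 17.5 TPM in MDA-MB-231 and the libraries held 13.3 to 24.8% of RNA of that line. Its HS578T means were 0.430 CPM in siNT, 1.91 CPM with siNRP1#3 and 8.27 CPM with siNRP1#5. The gene was thus low in the controls and high mainly in the group called. This call is among the 8 upward ones, and the part of the MDA-MB-231 RNA in it was not tested.

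Over the 52 libraries, centred within each line, the 5 genes most like SERPINB2 in log2 CPM among 12476 genes were MMP3 (Pearson r = 0.661), CPED1 (0.620), INSYN2B (0.561), COX11 (0.553) and DTNA (0.538). These are correlations over libraries that share lines and treatments, given as a description. MMP3 encodes stromelysin-1, a matrix metalloproteinase that plasmin can activate. Its mean was 0.544 ± 0.292 CPM (SD, n = 3) in MDA-MB-231 shNT and 7.10 ± 3.07 CPM with shNRP1#5, and 1.56 ± 1.29 and 7.55 ± 7.73 CPM in the same groups of HS578T. The 2 genes did not always go together. With shNRP1#3 in MDA-MB-231, MMP3 was at 0.660 ± 0.203 CPM, while SERPINB2 was at 12.4 to 24.2 CPM. In SUM159PT, with close to no SERPINB2, MMP3 was at 9.48 ± 7.72 CPM in shNT and 28.3 ± 10.6 CPM with shNRP1#5. The other genes of the set had r of 0.183 (SERPINE2), -0.194 (PLAU), -0.0077 (PLAUR) and -0.276 (PLAT) with SERPINB2.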
